A study of Homo sapiens with 10 samples.

Results

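The genes described here are 36 that serve the entry of new proteins into the endoplasmic reticulum (ER), their folding there and their onward transport, chosen by name from a list of secretory genes. All 36 symbols were found among the 21174 genes of the count table, and all 36 passed the filter on low counts (lowest count of any of them in a library, 107). RNA was sequenced from 10 libraries made from clones of U2932, a long-established human lymphoma line (diffuse large B cell lymphoma, DLBCL). By the labels, 5 of the clones are CREBBP+/+ (WT_1 to WT_5) and 5 are CREBBP+/- (Het_6 to Het_10 in the deposited table). CREBBP encodes an enzyme that acetylates histones and other proteins and thereby helps transcription factors to switch genes on. Culture medium was RPMI with antibiotics and 20% heat-inactivated serum for all, and no treatment is named. The clones come from 1 line, and the way in which a CREBBP copy was altered and each clone was derived was not given in the sources used here. Since the numbers of the Het columns match no labelled clone, these columns were used as members of their genotype only.

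Proteins bound for secretion or for membranes enter the ER through the SEC61 channel, helped by the signal sequence receptor (SSR, or TRAP) complex, and signal peptidase removes their signal peptide. Chaperones and disulfide isomerases fold them, and misfolded chains are drawn back to the cytosol and destroyed, a route called ER-associated degradation. The sensors IRE1 (gene ERN1) and ATF6 raise these genes when folding falls behind. In the B lineage the machinery expands when cells become antibody-secreting plasma cells, a change driven by the repressor PRDM1 (BLIMP-1) and the factor XBP1. The comparison therefore addressed both the CREBBP genotype and whether the level of the secretory genes followed that of PRDM1.

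Total counts per library ran from 10615977 (Het_9) to 23020694 (Het_6). Levels are given as CPM, that is, reads of a gene per 1e+06 counted reads after TMM scaling. CREBBP itself had 103 to 136 CPM in the WT libraries and 56.8 to 80.7 CPM in the Het libraries, which did not overlap. The B cell markers CD79A (371 to 660 CPM) and MS4A1 (700 to 1567 CPM) were present in every library. Of 12 markers of other cell types, 7 stayed at or below 1 CPM in every library, 4 of them with no count in any. Among the other 5, CD14 (up to 1.08 CPM), COL1A1 (1.01 CPM), DCN (1.29 CPM) and NCAM1 (3.95 CPM) were low, and EPCAM reached 26.7 CPM. Clustering on the genes outside the lists placed WT_1, WT_2 and Het_8 together (the set of 3), WT_3, WT_4, WT_5, Het_6 and Het_7 together (the set of 5), and Het_9 with Het_10 (the pair). These sets were defined from the data, cross the genotypes and were compared without a test. The labels do not say whether libraries came from separate cultures, and a p-value here therefore reflects only how these libraries spread, which may be technical. In such bulk RNA, fewer cells of a kind and less RNA per cell cannot be told apart.

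Over all members, the secretory genes differed little between the genotypes. The mean log2 CPM of the 36 genes was 6.96 ± 0.151 in CREBBP+/+ and 6.89 ± 0.0870 in CREBBP+/- libraries (SD, n = 5 each), with ranges of 6.79 to 7.16 and 6.80 to 7.0. Their summed share of all counts was 0.832% ± 0.0764 and 0.821% ± 0.0907 (SD, n = 5 each). By the quasi-likelihood F-test of edgeR at an adjusted p under 0.05 over all genes tested, 0 of 36 members and 0 of 11961 genes (0%) were called. CREBBP itself was among the genes not called (log2 fold change -0.73, SE 0.12, edgeR adjusted p = 0.395), whereas DESeq2 called it (adjusted p = 8.68e-05). The absence of edgeR calls therefore does not show that the genotypes were alike. At an unadjusted p under 0.05 edgeR gave 3 members, all lower in CREBBP+/-, which is 8.33% against 2.6% of all genes tested in that direction, and 0 higher, against 2.38% (4.98% in either direction). DESeq2 called 1 member, ERGIC1, against 0.268% of all genes, and limma-voom called 0. The log2 fold change (CREBBP+/- over CREBBP+/+) was below 0 for 27 members (75%) and above 0 for 9, against 52.4% of all genes tested below 0, with a median of -0.06 and a range of -0.45 to 0.24, and the median over all genes tested was -0.01. Leaving out 1 library turned the sign of 14 of the 36 members, so the direction of these 14 rests on single libraries.

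**Figure D1:**
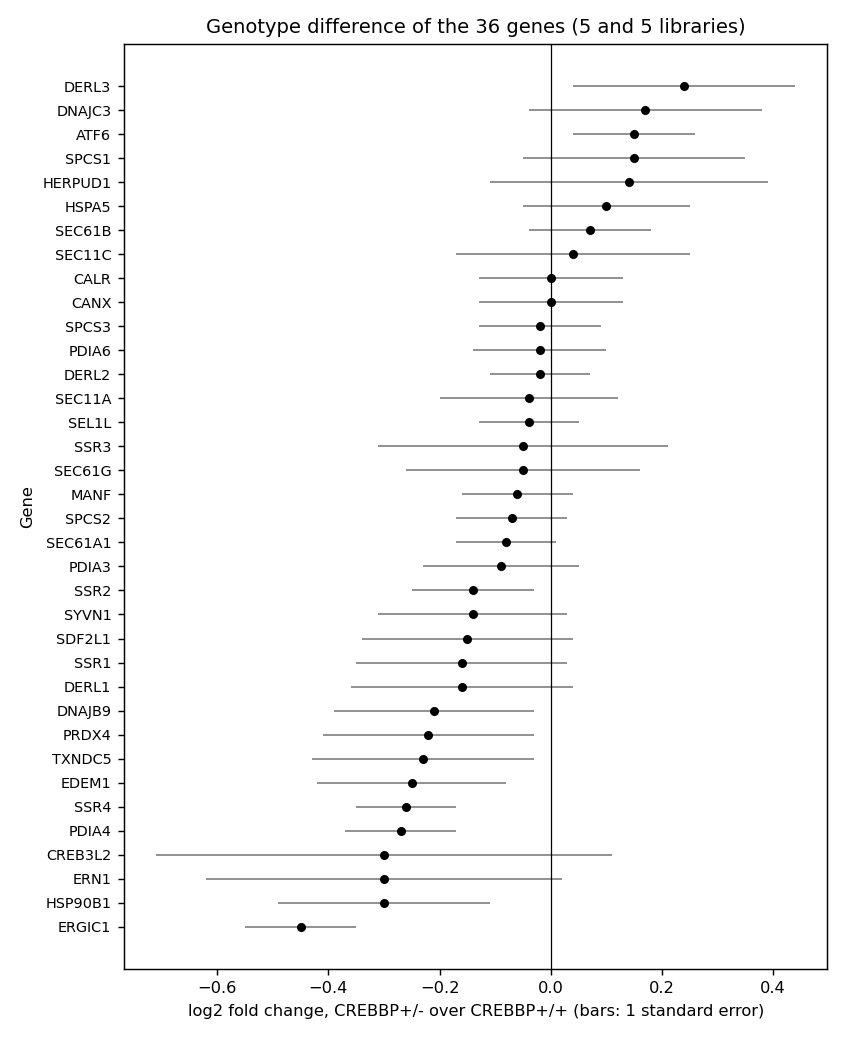
Log2 fold change of each of the 36 genes between the genotypes (horizontal axis, CREBBP+/- over CREBBP+/+, 5 libraries each), with bars of 1 standard error from edgeR. The points lie between -0.45 (ERGIC1) and 0.24 (DERL3), and ERGIC1 at the bottom stands farthest from 0.

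ERGIC1 was the 1 member whose genotypes did not overlap. It encodes a membrane protein of the compartment between the ER and the Golgi (ENSG00000113719, chr5:172834251-172952792, GRCh38, with no other gene of the count table overlapping its exons). The 5 CREBBP+/+ libraries had 131, 107, 105, 114 and 135 CPM (WT_1 to WT_5), and the 5 CREBBP+/- libraries had 86.3, 94.8, 91.1, 76.4 and 86.8 CPM (Het_6 to Het_10). Every Het library was thus lower than every WT library, both inside the set of 3 and inside the set of 5. Over all genes tested, 0.594% separated this way with CREBBP+/- lower and 0.426% with CREBBP+/- higher (71 and 51 genes), a split that turned to 45 and 69 genes when CPM used plain total counts. The means of ERGIC1 were 119 ± 13.6 CPM with both CREBBP copies and 87.1 ± 6.90 CPM in CREBBP+/- libraries (SD, n = 5 each), a fold of 1.36. The log2 fold change was -0.45 (SE 0.10, edgeR adjusted p = 0.671), which does not pass, and DESeq2 gave an adjusted p of 0.0123. That DESeq2 call was lost without WT_1 (adjusted p = 0.133), WT_4 (0.0576), WT_5 (0.0688), Het_6 (0.0634), Het_9 (0.081) or Het_10 (0.107), and when both Het_9 and Het_10 were dropped (0.416).

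The other members with an unadjusted edgeR p under 0.05 overlapped between the genotypes. PDIA4, a disulfide isomerase, had means of 212 ± 25.4 CPM for CREBBP+/+ and 176 ± 12.1 CPM for CREBBP+/- (SD, n = 5 each; log2 fold change -0.27, SE 0.10, edgeR adjusted p = 0.977). SSR4, the delta subunit of the SSR complex, averaged 58.9 ± 6.85 and 49.3 ± 2.27 CPM (SD, n = 5 each; -0.26, SE 0.09, edgeR adjusted p = 0.977). With the 3 library sets as a covariate, edgeR gave 8 members an unadjusted p under 0.05, all lower in CREBBP+/-, namely SPCS2, DERL1, HERPUD1, CALR, DNAJB9, SDF2L1, PDIA4 and ERGIC1. They were 22.2% of the members, against 12.7% of all genes in either direction and 7.67% with CREBBP+/- lower. The pair holds no CREBBP+/+ library, so this fit compared the genotypes only inside the set of 3 and the set of 5. Het_8, the only CREBBP+/- library of the set of 3, lay below WT_1 and WT_2 in all 8 genes. Het_6 and Het_7 both lay below WT_3, WT_4 and WT_5 only in DERL1, DNAJB9 and ERGIC1 among them. None of the 36 passed after adjustment in that fit (smallest edgeR adjusted p = 0.228, ERGIC1).

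The library sets separated secretory genes in both directions. More members separated by set than by genotype, as was so over all genes tested (21.8% and 23.9% by set, 0.594% and 0.426% by genotype). The sets were defined from these same libraries, and 3 libraries separate from 5 more easily than 5 from 5. This contrast is therefore not particular to the secretory genes. PRDM1 had 1.79, 3.71 and 2.29 CPM in WT_1, WT_2 and Het_8, 9.27 and 10.8 CPM in Het_9 and Het_10, and 66.5, 44.8, 46.2, 48.2 and 39.6 CPM in WT_3, WT_4, WT_5, Het_6 and Het_7. The 3 ranges of PRDM1 did not overlap. EPCAM also differed between the sets, with 1.42 to 13.7 CPM in the set of 3, 22.9 and 23.1 CPM in the pair and 19.8 to 26.7 CPM in the set of 5, and its part in the results was not tested. The sets differed in other regulators too. MYC had 128 to 141 CPM in the set of 3 and 27.7 to 52.3 CPM in the set of 5, and BCL6 had 241 to 318 and 526 to 611 CPM. A difference between the sets therefore cannot be assigned to PRDM1. In 13 members (36.1%) each library of the set of 3, where PRDM1 was lowest, lay above each library of the set of 5, where PRDM1 was highest. Of all genes tested, 21.8% did so. In 7 members (19.4%) the set of 3 lay below the set of 5, against 23.9% of all genes tested. Because the libraries fall into separate clusters, a relation with PRDM1 across the 10 libraries could not be tested, and its values are set beside those of the members.

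The full order of PRDM1 over the 3 sets has the set of 3 lowest, the pair between and the set of 5 highest. It was found in 0 of 36 members and in 4.41% of all genes tested. SSR1, SSR3 and ATF6 (8.33%) had the reverse order, against 3.26% of all genes. Shares this small amount to few genes among 36, so neither count sets the members apart from all genes. In the CREBBP+/+ libraries alone, where the genotype is constant, WT_1 and WT_2 lay above WT_3, WT_4 and WT_5 in 19 members (52.8%; 30.6% of all genes tested) and below them in 7 (19.4%; 33.2%). The 13 and the 7 of the wider comparison are among these by construction. The others that were higher were SEC61A1, SPCS3, HSP90B1, DNAJB9, DNAJC3 and SDF2L1.

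**Figure D2:**
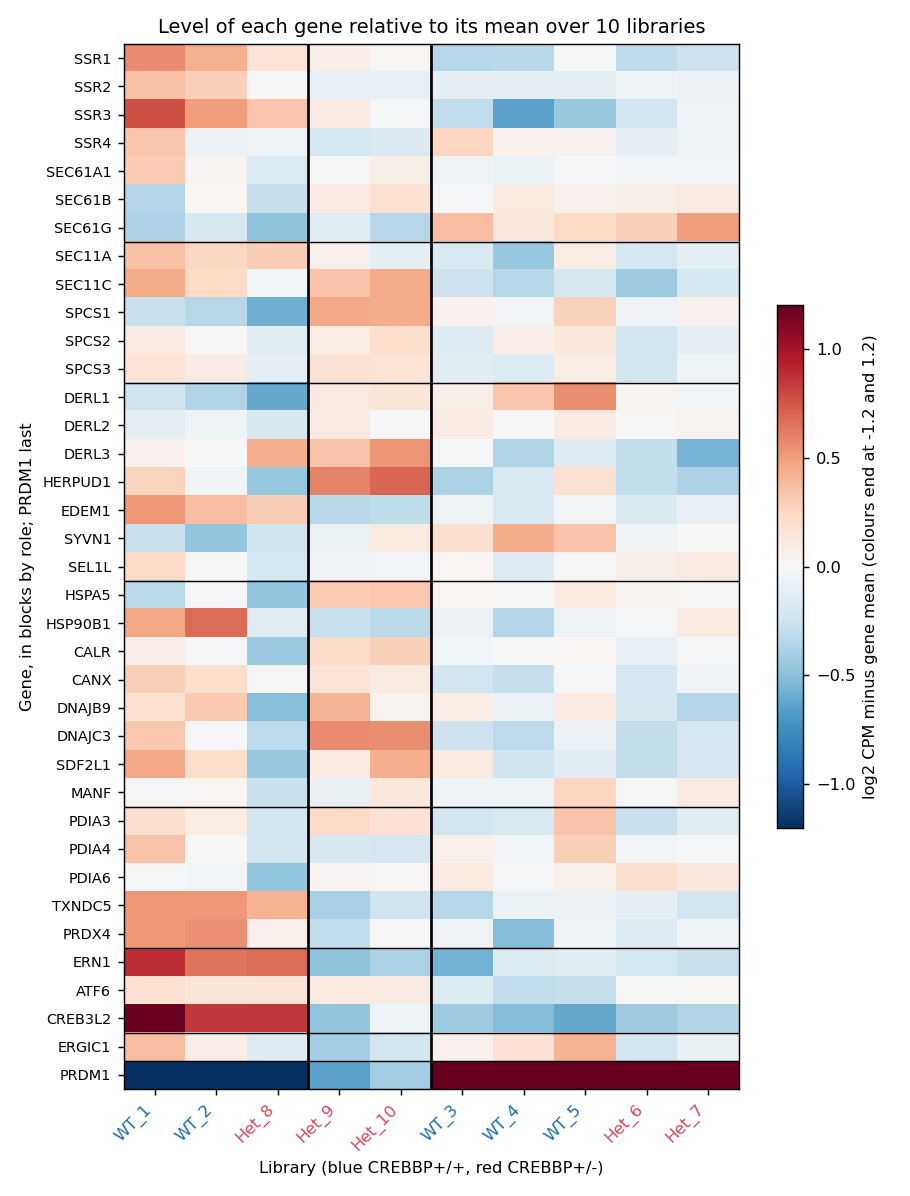
Level of each of the 36 genes, in blocks by role from translocation to transport, and of PRDM1 in the last line, as log2 CPM minus the mean of the gene over 10 libraries (red above the mean, blue below, colours ending at 1.2 in either direction, which PRDM1 exceeds). The set of 3 is at the left, the pair in the middle and the set of 5 at the right; CREB3L2, ERN1 and SSR3 are red at the left, where PRDM1 is blue.

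CREB3L2 and ERN1 showed the widest separation of the set of 3 from the set of 5 among the members, and the sensor ATF6 a narrow one. CREB3L2, an ER membrane factor of the ATF6 type that is cut and released to switch on secretory genes (ENSG00000182158, chr7:137874979-138002086, GRCh38), had 141, 111 and 111 CPM in WT_1, WT_2 and Het_8. It had 45.8, 43.1, 40.4, 46.1 and 48.2 CPM in WT_3, WT_4, WT_5, Het_6 and Het_7, and 44.4 and 59.6 CPM in Het_9 and Het_10. Its lowest library in the set of 3 was 2.29 times its highest in the set of 5, and the pair lay with or just above the latter. ERN1, which encodes the sensor IRE1 that splices XBP1 mRNA (ENSG00000178607, chr17:64039080-64130819, GRCh38), had 25.3, 21.4 and 21.8 CPM in the set of 3, 9.24, 12.2, 12.5, 11.8 and 11.4 CPM in the set of 5, and 9.82 and 10.5 CPM in the pair. Again the set of 3 stood apart, by a factor of 1.71 between the nearest libraries. ATF6, the sensor that is cut in the Golgi, had 58.8 to 60.3 CPM in the set of 3, 57.2 to 57.7 CPM in the pair and 43.2 to 54.1 CPM in the set of 5. Between genotypes the 3 genes had log2 fold changes of -0.30 (SE 0.41), -0.30 (SE 0.32) and 0.15 (SE 0.11), none called, and that of CREB3L2 moved from -0.62 without Het_8 to 0.04 without WT_1.

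XBP1, the target of IRE1, did not separate the sets. It had 149, 98.0 and 82.4 CPM in WT_1, WT_2 and Het_8, 80.4 to 93.3 CPM in the set of 5, and 85.9 and 120 CPM in Het_9 and Het_10. Counts per gene do not show how much of its mRNA was spliced. IRF4, a factor of activated B cells and plasma cells, had 715 to 726 CPM in the set of 3, 505 to 687 CPM in the set of 5 and 370 and 435 CPM in the pair.

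Within the translocation machinery, SSR1, SSR2 and SSR3 were higher in the set of 3 than in the set of 5, SEC61G was lower, and SSR4, SEC61A1 and SEC61B overlapped. SSR3, the gamma subunit of the SSR complex (ENSG00000114850, chr3:156539553-156555149, GRCh38), had 284, 237 and 210 CPM in WT_1, WT_2 and Het_8. In WT_3, WT_4, WT_5, Het_6 and Het_7 it had 136, 107, 122, 142 and 160 CPM, and in Het_9 and Het_10 179 and 165 CPM. The sets therefore lay in the reverse order of PRDM1, with a factor of 1.31 between the nearest libraries of the 2 larger sets. SSR1 and SSR2, the alpha and beta subunits, were also higher in each library of the set of 3 than in each of the set of 5 (172 to 227 against 121 to 152 CPM, and 87.1 to 111 against 80.5 to 84.1 CPM), whereas SSR4 overlapped (51.1 to 67.6 against 49.5 to 64.4 CPM).

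SEC61G, the gamma subunit of the channel (ENSG00000132432, chr7:54752250-54759974, GRCh38), had 44.3, 50.1 and 41.1 CPM in WT_1, WT_2 and Het_8, 74.1, 63.1, 67.7, 69.8 and 81.1 CPM in the set of 5, and 52.0 and 45.3 CPM in the pair. Of the 7 members that were lower in the set of 3 than in the set of 5, as PRDM1 was, it had the widest gap (a factor of 1.26 between the nearest libraries), and the pair overlapped the set of 3. SEC61A1, the channel-forming alpha subunit, overlapped between these sets (247 to 341 and 262 to 274 CPM), as did SEC61B, the beta subunit (120 to 155 and 151 to 166 CPM). The ratio of SSR3 to SEC61B CPM, chosen after the values were seen, was 2.36, 1.53 and 1.66 in WT_1, WT_2 and Het_8, 1.09 and 0.955 in Het_9 and Het_10, and 0.646 to 0.97 in the set of 5. SEC61A1 and SSR4 share exon bases with genes on the opposite strand (RUVBL1 and IDH3G), and since use of strand is not stated their counts are less certain.

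Among the signal peptidase genes, SEC11A and SEC11C were higher and SPCS1 was lower in the set of 3 than in the set of 5. SEC11C, 1 of its 2 alternative catalytic subunits, was the most abundant member per length, at 281 ± 66.4 CPM per kb of exon (SD, n = 10). It had 1099 to 1538 CPM in the set of 3, 1425 and 1531 CPM in the pair and 835 to 984 CPM in the set of 5. SEC11A, the other catalytic subunit, was at 10.3 ± 1.80 CPM per kb (SD, n = 10), and it too was higher in the set of 3 (66.4 to 71.2 CPM) than in the set of 5 (40.8 to 59.6 CPM). SPCS1, a small accessory subunit, went the opposite way, with 47.2 to 59.1 CPM in the set of 3, 68.2 to 85.8 CPM in the set of 5 and 96.5 and 97.6 CPM in the pair; it shares exon bases with NEK4 and GLT8D1 on the opposite strand. SPCS2 (53.0 to 63.5 against 50.4 to 64.2 CPM) and SPCS3 (383 to 466 against 357 to 444 CPM) overlapped between these sets.

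Genes of ER-associated degradation split into 2 that were higher and 3 that were lower in the set of 3. DERL3, a derlin of secretory cells (ENSG00000099958, chr22:23834503-23839128, GRCh38), had 52.2, 50.8 and 68.2 CPM in WT_1, WT_2 and Het_8, 49.9, 39.4, 45.4, 41.4 and 34.4 CPM in the set of 5, and 63.9 and 73.1 CPM in the pair. The nearest libraries of the 2 larger sets, WT_2 and WT_3, were only 1.02-fold apart, and exon bases are shared with SMARCB1 on the opposite strand. EDEM1, a lectin that hands misfolded glycoproteins on for degradation, had 197 to 229 CPM in the set of 3, 141 to 156 CPM in the set of 5 and the lowest values, 127 and 130 CPM, in the pair. DERL1 (39.4 to 51.2 against 59.0 to 88.7 CPM), DERL2 (28.7 to 31.8 against 33.1 to 35.2 CPM) and SYVN1 (326 to 382 against 438 to 614 CPM) were lower in each library of the set of 3 than in each of the set of 5. DERL1 and DERL2 are channel-like derlins and SYVN1 (HRD1) is the ubiquitin ligase of the route. SEL1L, the partner of SYVN1, overlapped between them (63.2 to 86.3 and 65.4 to 78.7 CPM). DERL1, DERL2 and SYVN1 also share exon bases with a gene on the opposite strand, and SYVN1 with FAU on the same strand, so their counts are less certain.

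HERPUD1, an ER membrane protein that is strongly induced by ER stress (ENSG00000051108, chr16:56932142-56944864, GRCh38), was highest in the pair. Het_9 and Het_10 had 447 and 481 CPM, WT_1, WT_2 and Het_8 had 357, 285 and 216 CPM, and WT_3, WT_4, WT_5, Het_6 and Het_7 had 227, 260, 335, 242 and 229 CPM. The lower library of the pair was 1.25 times the highest of the other 8. Between genotypes the log2 fold change of HERPUD1 was 0.14 (SE 0.25), and it was -0.35 without Het_9 and Het_10. DNAJC3 (p58IPK), a cochaperone that restrains a translation-blocking kinase (ENSG00000102580, chr13:95677139-95794988, GRCh38), showed the same order, with 116 and 115 CPM in Het_9 and Het_10, 97.6, 77.6 and 63.1 CPM in the set of 3, and 65.7, 62.8, 74.4, 64.3 and 68.2 CPM in the set of 5.

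In all, Het_9 and Het_10 lay above the other 8 libraries in 6 members (16.7%; 9.8% of all genes tested), which were SPCS1, SPCS3, HERPUD1, HSPA5, CALR and DNAJC3. For SPCS3 the separation from WT_1 was smaller than the rounding of the values (466 CPM in WT_1 and in Het_10). They lay below the other 8 in SSR4 and EDEM1 (5.56%; 8.71%). Against the set of 5 alone the pair was higher in 12 members (33.3%; 19.3% of all genes tested) and lower in 4 (11.1%; 21%). The pair holds no CREBBP+/+ library, so the genotypes cannot be compared inside it. Het_6, Het_7 and Het_8, which are also CREBBP+/-, lay below the pair in the 6 members named above. Whether the pattern of the pair depends on the genotype was not tested. The pair also had the highest summed level of markers of other cell types without EPCAM, 7.25 and 5.40 CPM against 0.677 to 1.80 CPM in the other 8, mainly NCAM1 (3.95 and 2.61 CPM). The stromal markers DCN (1.29 and 0.884 CPM, with no count in the other 8 libraries) and COL1A1 (1.01 and 0.698 CPM against 0.193 to 0.496 CPM) were also highest in the pair, while COL1A2, CD3D, NKG7 and HBB had no count in any library. The part of these markers in the result was not tested. Het_9 was also the shallowest library.

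Promoter sequence was examined for the elements named after the ER stress response, since chaperones that carry the same element can be compared across the sets. RefSeq promoters (GRCh38.p14) were found for 31 members, and the 250 bases before each start were searched on both strands. ERSE, which is CCAAT, 9 bases of any kind and then CCACG, was present in 5 of 31 members (16.1%), against 0.17% of tested genes and 0.0916% of all genes with a promoter. ERSE-II, which is ATTGG, 1 base of any kind and then CCACG, was present in HERPUD1 and SDF2L1 (6.45%; 0.127% of tested genes). UPRE, which is TGACGTGG, was present in SSR3, SSR4 and TXNDC5 (9.68%; 0.944%), and no member held matches of more than 1 of these motifs. The ERSE matches and that of HERPUD1 are shown 5′ to 3′ on the strand of the gene, with the match in capitals (a match on the other strand reads CGTGG first), because the ERSE genes did not share 1 pattern over the libraries and HERPUD1 was among the genes of widest spread. A match is a description of letters in this window, not a bound site.
HSPA5, chr9:125241386-125241414, minus strand: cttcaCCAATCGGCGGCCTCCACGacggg
HSP90B1 farther match, chr12:103930211-103930239, plus strand: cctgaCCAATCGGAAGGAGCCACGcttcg
HSP90B1 nearer match, chr12:103930316-103930344, plus strand: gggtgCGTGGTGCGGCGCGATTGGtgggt
CALR, chr19:12938379-12938407, plus strand: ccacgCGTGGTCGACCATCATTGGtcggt
CANX, chr5:179698773-179698801, plus strand: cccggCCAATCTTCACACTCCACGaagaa
PDIA6, chr2:10812848-10812876, minus strand: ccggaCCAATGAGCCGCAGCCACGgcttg
HERPUD1, ERSE-II, chr16:56932020-56932040, plus strand: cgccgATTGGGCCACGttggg

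The 5 genes with an ERSE match had different patterns. HSPA5 (BiP), the main HSP70 chaperone of the ER, had 522, 642 and 469 CPM in WT_1, WT_2 and Het_8, 647 to 709 CPM in the set of 5, and 805 and 818 CPM in Het_9 and Het_10. HSP90B1 (GRP94), the HSP90 of the ER, had 841, 973 and 551 CPM in the set of 3, 479 to 658 CPM in the set of 5, and 508 and 487 CPM in the pair. WT_1 and WT_2 were thus above the set of 5 for HSP90B1 and below it for HSPA5, WT_2 only just (642 against 647 CPM). The pair was above the other 8 libraries for HSPA5 and inside the range of the set of 5 for HSP90B1. The ratio of HSP90B1 to HSPA5 CPM, again chosen after the values were seen, was 1.61, 1.51 and 1.17 in WT_1, WT_2 and Het_8, 0.74 to 0.997 in the set of 5, and 0.631 and 0.596 in the pair.

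The lectin chaperones CALR and CANX, which hold glycoproteins during folding, also differed from each other. CALR had 725, 681 and 503 CPM in WT_1, WT_2 and Het_8, 642 to 697 CPM in the set of 5 and 798 and 836 CPM in Het_9 and Het_10. CANX had 742 to 896 CPM in the set of 3, above the 604 to 721 CPM of the set of 5, and 819 and 792 CPM in the pair. PDIA6, a disulfide isomerase, had 456, 451 and 336 CPM in WT_1, WT_2 and Het_8, all at or below the 456 to 527 CPM of the set of 5, and 473 and 468 CPM in the pair. The remaining chaperones, the HSP40 cochaperone DNAJB9 (8.0 to 15.1 CPM over the 10 libraries), SDF2L1 (17.0 to 32.0 CPM) and the secreted stress protein MANF (59.1 to 85.2 CPM), overlapped between the set of 3 and the set of 5.

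Among the redox enzymes, TXNDC5, a thioredoxin-domain isomerase that is abundant in plasma cells (ENSG00000239264, chr6:7881517-7910788, GRCh38), had 312, 312 and 290 CPM in WT_1, WT_2 and Het_8. It had 172, 206, 207, 202 and 186 CPM in WT_3, WT_4, WT_5, Het_6 and Het_7, and 166 and 184 CPM in Het_9 and Het_10. The set of 3 stood apart by a factor of 1.40 between the nearest libraries, and the other sets overlapped. The read-through gene BLOC1S5-TXNDC5 had 99.9% to 102% of the count of TXNDC5 in each library, so reads may have been counted for both and the value of TXNDC5 is uncertain to that extent. PRDX4, a peroxidase of the ER, had 26.1 to 36.5 CPM in the set of 3, 17.4 to 24.1 CPM in the set of 5 and 20.4 and 25.1 CPM in the pair. PDIA3, the isomerase that works with CALR and CANX, overlapped between the 2 larger sets (284 to 378 and 275 to 419 CPM). It shares exon bases with ELL3 and ENSG00000262560 on the opposite strand (total counts of 56445 and 55275), so its count is less certain. HSP90B1 and PDIA6 also share exon bases with genes on the opposite strand, which had lower total counts (UQCC6 2893 and ATP6V1C2 338).

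**Figure D3:**
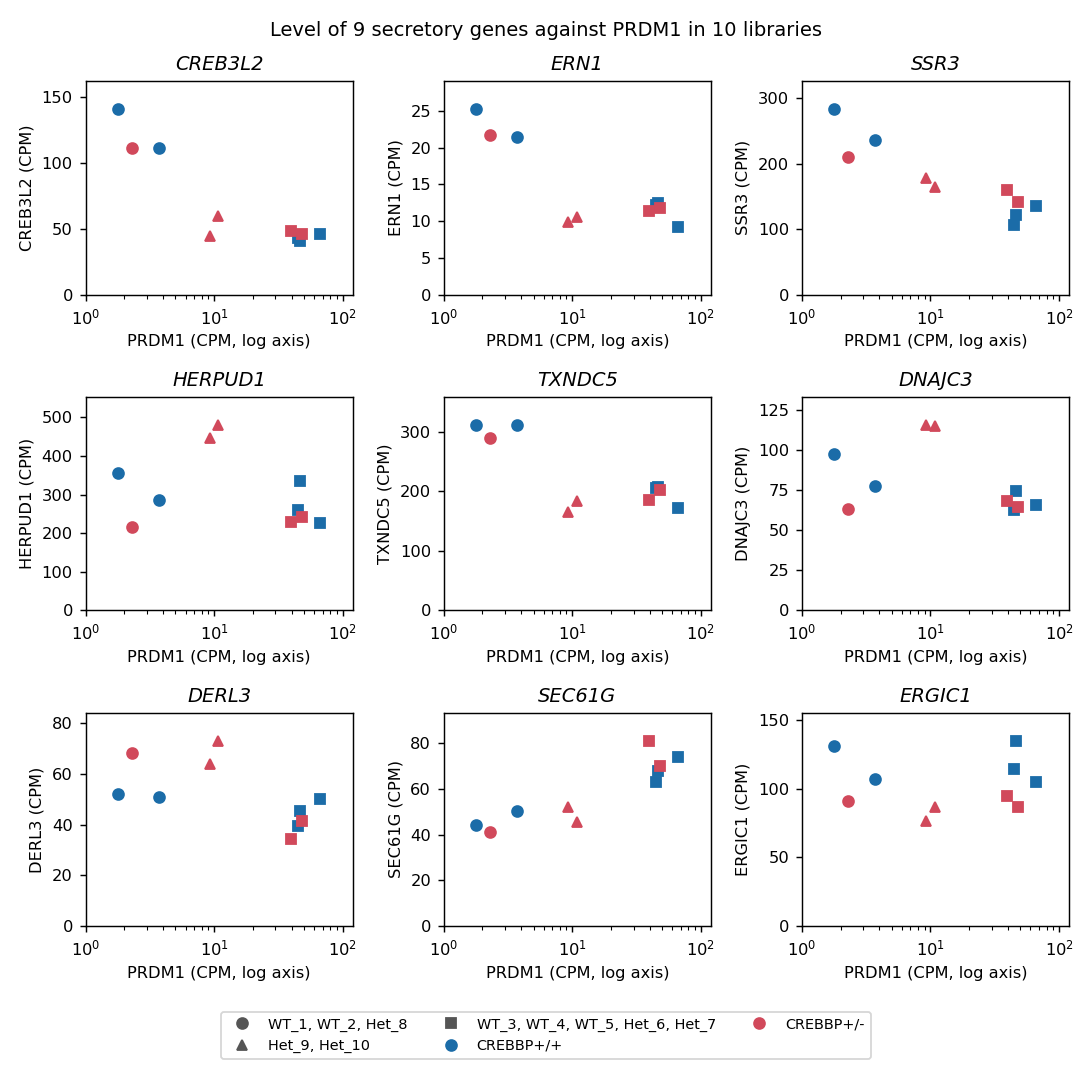
CPM of 9 members (vertical axes, from 0), the 8 with the widest spread over libraries and ERGIC1, against PRDM1 CPM on a log axis, with 1 point per library (blue CREBBP+/+, red CREBBP+/-; circles the set of 3, triangles the pair, squares the set of 5). CREB3L2, ERN1, TXNDC5 and SSR3 are highest at the left, SEC61G is highest at the right, and HERPUD1 and DNAJC3 are highest in the triangles at intermediate PRDM1.

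Het_8 differed from the other libraries of its set. It lay below both WT_1 and WT_2 in 29 members (80.6%) and above both in DERL3 and SYVN1 (5.56%), whereas 38.3% of all genes tested lay below and 38.3% above. These counts take any margin, and for CREB3L2 Het_8 had 0.994 times the level of WT_2. In 14 members (38.9%) Het_8 was the lowest of all 10 libraries, against 14.6% of all genes. The 3 lowest ratios of Het_8 to the lower of WT_1 and WT_2 were those of the folding genes DNAJB9 (0.619), SDF2L1 (0.63) and HSP90B1 (0.655). DNAJB9 had 8.0 CPM in Het_8 against 12.9 and 14.2 CPM in WT_1 and WT_2, and SDF2L1, a partner of HSPA5, had 17.0 against 32.0 and 26.9 CPM. HSP90B1 was at 551 against 841 and 973 CPM. The mean log2 CPM of the 8 chaperones was 6.93 in Het_8, below the 7.09 to 7.45 of the other 9 libraries, while that of the 3 sensors and factors was 5.71, beside 5.91 and 5.70 in WT_1 and WT_2. Het_8 is 1 clone and the only CREBBP+/- library of its set, so clone and genotype cannot be told apart there.

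A like difference was not present in the set of 5, where Het_6 and Het_7 both lay below WT_3, WT_4 and WT_5 in 5 members (13.9%; 18.4% of all genes tested) and above them in 7 (19.4%; 17.8%). DERL1, DNAJB9 and ERGIC1 (8.33%) were lower with CREBBP+/- in both sets, against 7.07% of all genes, and 0 members were higher in both, against 6.12%.

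**Figure D4:**
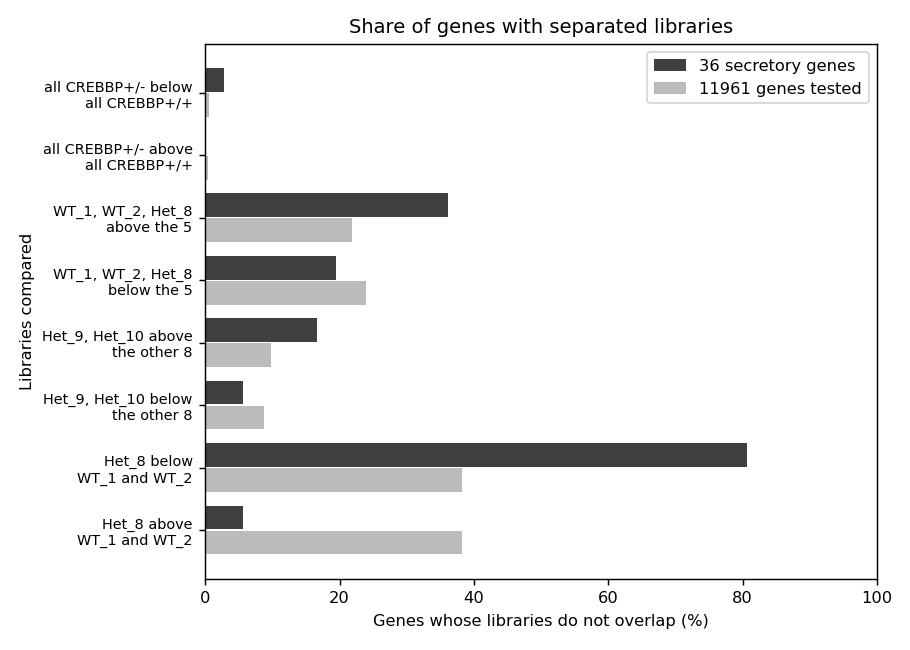
Share of genes whose libraries do not overlap (horizontal axis, percent) for 8 comparisons of libraries, in the 36 secretory genes (dark bars) and in the 11961 genes tested (light bars). The dark bar is longest for Het_8 below WT_1 and WT_2, at 80.6% against 38.3%, and in the genotype comparisons at the top it is 2.78% and 0%.

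The wider pathway gave no genotype call. Of 94 further genes in 6 lists (other stress factors, other chaperones and redox enzymes, signal recognition and other translocation genes, the oligosaccharyltransferase, other degradation genes, and ER exit and retrieval), 92 were tested. By edgeR and by DESeq2 0 were called, 45 log2 fold changes were below 0 and 47 above, and the median was 0.00. The smallest p in the oligosaccharyltransferase list was that of TMEM258 (49.6 ± 5.49 and 40.0 ± 2.22 CPM, SD, n = 5 each; log2 fold change -0.31, SE 0.09, edgeR adjusted p = 0.842). SEC23B, a coat protein of vesicles that leave the ER, had 94.6 ± 4.51 and 107 ± 4.58 CPM (SD, n = 5 each; 0.18, SE 0.07, edgeR adjusted p = 0.977). Across the sets, 17 of the 92 (18.5%) were higher and 19 (20.7%) lower in the set of 3 than in the set of 5, near the 21.8% and 23.9% of all genes tested.

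Immunoglobulin, a main cargo of the pathway in B cells, was ordered differently in sum from the machinery. The summed level of the immunoglobulin constant genes was 8121, 7779 and 7280 CPM in WT_1, WT_2 and Het_8, 8400 and 10406 CPM in Het_9 and Het_10, and 13654 to 16908 CPM in the set of 5, the same order as PRDM1. IGHM (4322 to 4859 CPM in the set of 3, 8855 to 11748 CPM in the set of 5) and IGKC (2145 to 2468 and 3237 to 3938 CPM) made up most of it. Of the 12 constant genes tested, 7 were lower in the set of 3 than in the set of 5 (23.9% of all genes tested), and the lambda genes IGLC1 (254 to 320 against 121 to 217 CPM), IGLC2 (38.2 to 43.4 against 7.76 to 17.9 CPM) and IGLC3 were higher (21.8%). In the same libraries the 36 secretory genes summed to 9553, 9049 and 7378 CPM, to 8866 and 9117 CPM, and to 7413 to 8360 CPM. The library with the largest sum for the machinery, WT_1, was thus among the 3 smallest for immunoglobulin. Het_8, in contrast, had the smallest sum for both (7378 and 7280 CPM). Of 10 plasma cell genes, which include PRDM1, 6 were lower (23.9% of all genes tested) and 1 (IRF4) was higher (21.8%) in the set of 3 than in the set of 5. SDC1 (CD138), a plasma cell surface marker, had 0.308 to 3.11 CPM in the set of 3 and 7.68 to 17.5 CPM in the set of 5.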

How the data were processed

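The deposited table holds unnormalized read counts, with Ensembl genes in lines and 1 column per library. FastQC, STAR, featureCounts, DESeq2 and GRCh38 appear in the submitters' processing notes, which state no versions or roles; whether strand was used, and the annotation, was not given in the sources used here. From 10000 upward, the counts that the authors deposited carry 4 significant digits. The comparison of 5 CREBBP+/- with 5 CREBBP+/+ libraries used edgeR 4.0.16 in R 4.3.3 (quasi-likelihood F-test) with TMM factors, robust dispersions and filterByExpr (minimum count 10, minimum total 15), which left 11961 genes. Calls were made at a two-sided Benjamini-Hochberg adjusted p under 0.05 over these genes. The code was tested on simulated data. Alternatives were DESeq2 1.42.0, limma-voom (limma 3.58.1), other scalings and filters, the library sets as a covariate, and leaving out libraries. The count in CREBBP+/+ libraries alone and the DESeq2 fits of ERGIC1 without single libraries were added after the data were seen.

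To find the library sets, libraries were clustered with average linkage over 11419 genes with a mean of at least 1 CPM, without the listed genes. This used log2 of CPM plus 1, with CPM on plain totals and no TMM scaling, and the number of clusters was set to 3. The log2 CPM values printed in the text used a prior count of 2. Symbols and coordinates are those of GENCODE on GRCh38 (20804 of 21174 genes matched), and length is the union of exons. The members and lists were chosen with earlier results of these data known. Named genes were all members, PRDM1, XBP1, IRF4 and CREBBP, and the 3 genes of smallest p per other list; values in every library were given for members without overlap of the genotypes and for the 8 members of widest spread. CD79A, MS4A1, IGHM, IGKC, the lambda constant genes, the single markers of other cell types beside EPCAM and CD14, and the other members shown by library, were chosen after their values were seen. No 2 libraries were alike within sampling noise (chi-square per gene 7.77 for the closest, Het_9 and Het_10).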

Additional observations from a re-analysis of the deposited data

Results flagged for a closer look

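Among 76 groups of 5 values checked (each member and each sum in each genotype), 5 held a library far from the other 4, where chance alone gives about 1 in 20, or 3.8. Het_8 was the library apart in 4 of the 5. On the log2 CPM scale it was the lowest CREBBP+/- library for SEC61B, the beta subunit of the translocation channel (6.98, next 7.32), for the derlin DERL1 (5.30, next 5.88) and for the isomerase PDIA6 (8.39, next 8.87). It was the highest CREBBP+/- library for the stress sensor ERN1 (4.45, next 3.57), where it lay with WT_1 and WT_2. The other was MANF, a secreted stress protein, for which WT_5 was the highest CREBBP+/+ library (6.41, next 6.17).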

How the results depend on the processing

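No paired analysis was possible because the CREBBP+/- columns carry the numbers 6 to 10, which no labelled clone and no CREBBP+/+ library carries. Limits: the small genotype differences sit inside larger differences between library sets. Each member had at least 107 counts per library, but some separations of the 2 larger sets were narrow. The nearest libraries were apart by a factor of 1.01 for HSPA5, 1.02 for DERL3 and 1.04 for DERL2. Whether depth limits such separations was not tested. DESeq2 called 32 genes and 1 member (7 genes and 0 members without Het_9 and Het_10, and 12 to 104 genes leaving out 1 library), where edgeR called 0 with all libraries and 0 to 1 leaving out 1 (1 without Het_6). Limma-voom called 0. With CPM on total counts, 45 genes in place of 71 had all CREBBP+/- libraries below all CREBBP+/+ libraries. The median of the members was -0.11 to -0.03 leaving out 1 library and -0.14 without Het_9 and Het_10.

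Settings other than leaving out 1 library gave 552 log2 fold changes of 69 named genes. Of these, 513 kept their direction and side of the threshold and 37 changed sign. CALR (-0.00113) became 0.00139 with DESeq2, 0.00143 with DESeq2 size factors, 0.02 with upper-quartile factors and 0.00111 with a filter of 1 CPM. SSR3 became 0.05 with voom, CANX -0.00301 with no filter, and SPCS3 0.00358, DERL2 0.01 and PDIA6 0.00071 with upper-quartile factors. Without Het_9 and Het_10 the values were SEC61G 0.10, SEC11C -0.23, SPCS1 -0.12, HERPUD1 -0.35, HSPA5 -0.08, CANX -0.08, DNAJC3 -0.21, IRF4 0.18, SRP54 0.02, DAD1 -0.11 and IGHG3 0.02. With the library sets as a covariate they were SSR3 0.09, SEC61B -0.02, SEC61G 0.03, SEC11A 0.01, SEC11C -0.17, SPCS1 -0.17, DERL3 -0.00161, HERPUD1 -0.34, HSPA5 -0.12, CANX -0.05, DNAJC3 -0.18, CREB3L2 0.01, IRF4 0.21, SRP54 0.06, DAD1 -0.10, CD14 -0.02 and MYC 0.31.

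Leaving out 1 library turned the sign of 17 genes: SSR3 (-0.19 to 0.18, without WT_1, WT_2 or Het_6), SEC61B (-0.00165 to 0.14, WT_1), SEC61G (-0.20 to 0.05, WT_3, Het_8 or Het_10), SEC11A (-0.14 to 0.05, WT_1, WT_2 or Het_6), SEC11C (-0.07 to 0.17, WT_3, WT_4, WT_5, Het_9 or Het_10), SPCS3 (-0.07 to 0.03, WT_1, WT_2, Het_6 or Het_8), DERL2 (-0.05 to 0.03, WT_3, WT_5 or Het_8), HERPUD1 (-0.05 to 0.25, Het_9 or Het_10), SEL1L (-0.09 to 0.02, WT_1 or Het_8), CALR (-0.08 to 0.09, WT_1, WT_5, Het_6, Het_7 or Het_8), CANX (-0.06 to 0.08, WT_3, WT_4, WT_5, Het_9 or Het_10), MANF (-0.09 to 0.00459, WT_5), PDIA6 (-0.07 to 0.07, WT_3 or Het_8), CREB3L2 (-0.62 to 0.04, WT_1), XBP1 (-0.27 to 0.03, WT_1), IRF4 (-0.18 to 0.03, Het_9 or Het_10) and CD14 (-0.04 to 0.35, WT_1). The cause of these changes was not tested.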

Other observations

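LMAN1 (ERGIC-53), the lectin that carries glycoproteins from the ER to the Golgi, was chosen after its values were seen. It had 3626, 3375 and 3218 CPM in WT_1, WT_2 and Het_8, 2825 and 2699 CPM in Het_9 and Het_10, and 1640, 1318, 1625, 1661 and 1826 CPM in WT_3, WT_4, WT_5, Het_6 and Het_7. The 3 sets did not overlap and lay in the reverse order of PRDM1, with a factor of 1.76 between the nearest libraries of the 2 larger sets. Its genotype difference was small (log2 fold change 0.08, SE 0.32, edgeR adjusted p = 0.988). LMAN1 lies on chromosome 18 (59327823 to 59359265, GRCh38), near SEC11C (59139866 to 59158832), which was also higher in the set of 3 and in the pair than in the set of 5.

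MZB1, a chaperone of B cells that helps to assemble immunoglobulin, was lowest in the pair, at 23.0 and 34.7 CPM, against 67.9 to 93.8 CPM in the set of 3 and 49.9 to 68.1 CPM in the set of 5. ERP44 and DNAJC10, which act in disulfide chemistry of the ER, were highest in the pair (68.0 and 63.6 CPM, and 207 and 182 CPM) and had 39.1 to 56.9 CPM and 105 to 153 CPM in the other 8 libraries.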
